A study of Mus musculus with 9 samples.

Results

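The nuclear genes of respiratory complexes I, III and V were taken as all rows of the count table whose symbol starts with Nduf, Uqcr or Atp5 and does not contain -ps, with at least 30 counts summed over the 9 libraries. The table listed 52550 genes. Of these, 78 had such a prefix, 7 of them were pseudogenes marked -ps with 0 to 14 summed counts, and the remaining 71 were the members. The minimum of 30 counts removed none, the member closest to it being Atp5l with 194 counts. The members were 46 genes of complex I (Nduf), 8 of complex III (Uqcr) and 17 of complex V (Atp5), lying on 19 chromosomes, and all 71 passed the filter on low counts, which kept 13255 genes.

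The libraries came from micromass cultures, dense drops of cells from mouse fore limbs taken at embryonic day 12 and grown in medium that favours cartilage formation. Of the 9 cultures, 3 received the vehicle DMSO, 3 the caspase inhibitor Z-VAD-FMK at 100 µM (FMK) and 3 the caspase inhibitor Q-VD-OPH at 100 µM (OPH), in each case for 6 days with fresh medium and compound every second day. Both compounds are peptide-derived inhibitors that block many caspases, and they differ in the reactive end group, a fluoromethyl ketone in FMK and a difluorophenoxymethyl ketone in OPH. No strain, genotype or purification of cell types is given for any group, so all 3 groups are mixed limb cultures that differ only in what was added. The 3 cultures of a group are called biological replicates by the submitters. Reads were taken from the 3' ends of polyadenylated transcripts, so a gene's read count does not grow with transcript length, and levels in CPM, read counts scaled to the size of the library, are set beside each other between genes without division by length.

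The inner mitochondrial membrane carries the chain that turns the energy of nutrients into ATP. Complex I takes electrons from NADH and complex III passes them from ubiquinol to cytochrome c, both pumping protons, and complex V, the ATP synthase, lets the protons flow back through a rotor to make ATP. Most subunits are encoded in the nucleus and a few in the mitochondrial genome, and the amounts of the subunits are usually matched by shared regulators such as NRF1, GABP, YY1 and ERRα with the coactivator PGC-1α. Limb mesenchyme respires actively, and cartilage cells are known to lean towards glycolysis as they differentiate.

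The promoters of 4 members are shown because these had the lowest mean log2 fold change of all members lower with both inhibitors and matched by 1 RefSeq window each, a choice made after the values were seen. Each sequence holds the 250 bases before the annotated start on the gene's strand, 5′ to 3′, from RefSeq on build GRCm38.p6. Capitals mark exact matches, on either strand, to a motif searched for a known regulator. NRF1 was searched as the letters GCGCATGC, the SP family as GGGCGG and the CCAAT box by the letters in its name. ERR was searched as TCAAGGTCA, YY1 as AAGATGG, the ETS family with GABP as CCGGAAG and the hypoxia element as ACGTG. The windows are chr5:108434400-108434649 (minus strand) for Atp5k, chr10:80406822-80407071 (minus) for Uqcr11, chr4:116075071-116075320 (minus) for Uqcrh and chr8:83566508-83566757 (plus) for Ndufb7.
Atp5k: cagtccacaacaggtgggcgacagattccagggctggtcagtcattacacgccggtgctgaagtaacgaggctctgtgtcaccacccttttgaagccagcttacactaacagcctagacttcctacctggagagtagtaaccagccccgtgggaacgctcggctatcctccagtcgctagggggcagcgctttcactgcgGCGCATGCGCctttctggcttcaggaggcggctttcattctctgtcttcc
Uqcr11: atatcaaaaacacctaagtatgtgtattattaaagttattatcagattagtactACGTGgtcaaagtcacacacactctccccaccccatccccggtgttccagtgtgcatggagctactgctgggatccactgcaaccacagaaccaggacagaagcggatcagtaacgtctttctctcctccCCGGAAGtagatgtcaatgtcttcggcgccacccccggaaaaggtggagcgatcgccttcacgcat
Uqcrh: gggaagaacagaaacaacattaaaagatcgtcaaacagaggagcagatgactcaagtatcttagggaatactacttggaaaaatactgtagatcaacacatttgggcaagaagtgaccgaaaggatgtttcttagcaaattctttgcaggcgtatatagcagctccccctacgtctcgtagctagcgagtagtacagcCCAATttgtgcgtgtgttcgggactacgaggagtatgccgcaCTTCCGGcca
Ndufb7: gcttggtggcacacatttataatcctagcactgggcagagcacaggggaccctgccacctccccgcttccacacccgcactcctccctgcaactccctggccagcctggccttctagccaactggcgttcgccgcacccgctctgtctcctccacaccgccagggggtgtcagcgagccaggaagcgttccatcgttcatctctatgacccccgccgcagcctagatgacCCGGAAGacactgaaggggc
In Atp5k the capitals are 2 overlapping NRF1 matches, from 50 to 43 and from 48 to 41 bases before the start. Uqcr11 holds a hypoxia element match 196 to 192 bases and an ETS match 66 to 60 bases before the start. Uqcrh holds a CCAAT match from 52 to 48 bases and an ETS match on the opposite strand from 10 to 4 bases before the start. Ndufb7 holds 1 ETS match, 20 to 14 bases before the start.

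RefSeq promoter windows of 300 bases (250 before to 50 after the start) were found for 61 of the 71 members, 3 of them under another symbol, giving 67 windows to set beside all 32851 windows of the genome. The NRF1 letters occurred in 10 of the 67 member windows (14.9%) and in 2.71% of all windows. The YY1 letters were in 19.4% of member windows against 6.34% of all, and the ETS letters in 19.4% against 8.86%. Smaller gaps were seen for the hypoxia element (26.9% against 19.6%), the SP letters (41.8% against 35.7%) and the CCAAT box (40.3% against 37.4%), and the ERR letters stood in 1 member window (1.49% against 0.423%). Member windows were also richer in G and C, with a median of 59.0% against 52.7%. Among the 36 windows of members called lower with FMK, 4 held the NRF1 letters, 6 the YY1 letters, 8 the ETS letters, 6 the hypoxia element, 13 the SP letters, 15 the CCAAT box and 1 the ERR letters. Among the 31 other windows 6, 7, 5, 12, 15, 12 and 0 did, in the same order. A match is a stretch of letters and was not tested as a binding site.

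Taken as a sum, transcripts of all 3 complexes were less abundant with either inhibitor. Complex V summed to 5064 ± 80.6 CPM with DMSO (SD, n = 3), to 3901 ± 149 CPM with FMK and to 4140 ± 316 CPM with OPH, which is 77.0% and 81.8% of the DMSO mean. Complex III summed to 1803 ± 82.4 CPM with DMSO, 1442 ± 55.4 CPM with FMK (80.0% of DMSO) and 1500 ± 140 CPM with OPH (83.2%). Complex I, with the most genes, summed to 6324 ± 64.6 CPM with DMSO, 5399 ± 107 CPM with FMK (85.4%) and 5540 ± 420 CPM with OPH (87.6%). For each complex every FMK and every OPH library lay under every DMSO library. The SD of the OPH sums was the largest of the 3 groups for each complex, and the OPH library numbered 3 held the lowest sum over all members, 10288 CPM.

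**Figure D1:**
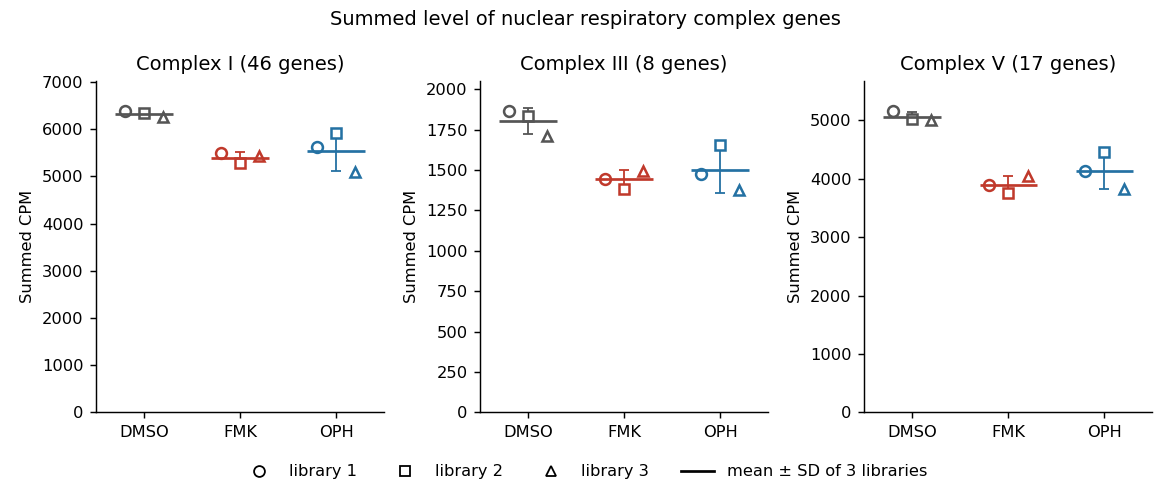
Summed level in CPM of the members of complexes I, III and V in each library (symbols show the library number, lines the mean, bars the SD of 3 libraries, axes start at 0). In each panel the FMK and OPH libraries lie under all 3 DMSO libraries, with complex V at 77.0% of the DMSO mean with FMK.

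With FMK, 37 of the 71 members fell (52.1%, where 10.1% of all 13255 genes tested were called lower) and 1 rose, Ndufa4l2 (1.41%, where 10.4% of all genes were called higher). The median log2 fold change of the members was -0.27, against -0.01 over all genes tested. With OPH, 21 members fell (29.6%, against 8.11% of all genes) and 0 rose (against 8.61%), with a member median of -0.20 and a median of -0.00 over all genes. At an unadjusted p under 0.05, 1 member was higher with OPH, and DESeq2 and limma-voom also called 0 higher and 21 lower. In FMK libraries 49 members lay under all DMSO libraries without overlap (18.1% of all genes did so) and 2 above (17.4%, so 35.5% in either direction). In OPH libraries 32 lay under (17.1% of all genes) and 1 above (16.6%, so 33.7% in either direction). Both comparisons use the same 3 DMSO libraries, so their results are not independent: 19 genes were called lower in both, 51.4% of the FMK list and 90.5% of the OPH list.

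The falls were moderate in size. Among members called lower, the fitted level was 15.0% to 40.4% under DMSO with FMK and 15.5% to 39.8% with OPH. The adjusted p-values are from edgeR's quasi-likelihood test over all 13255 genes, with a threshold of 0.05. Leaving out 1 library at a time lowered the FMK count to between 14 (without DMSO library 1) and 30, with 15 without FMK library 2, 22 without FMK library 1 and 24 without DMSO library 2. The count over all genes lower with FMK fell too, from 1341 of 13255 to between 938 and 1221. It was 960 of 13538 without DMSO library 1 and 938 of 13592 without FMK library 2. The OPH count of members went to between 10 (without OPH library 3) and 20, with 11 without DMSO library 1 and 11 when only the libraries numbered 1 and 2 were used. Over all genes, the count lower with OPH went from 1075 to between 696 and 848 with 1 library left out. It was 846 without OPH library 3, 726 without DMSO library 1 and 923 with the libraries numbered 1 and 2. Every called log2 fold change of a member kept its sign in the 16 alternatives run for its comparison. Of the members, 13 called with FMK and 9 called with OPH were called in all 16.

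**Figure D2:**
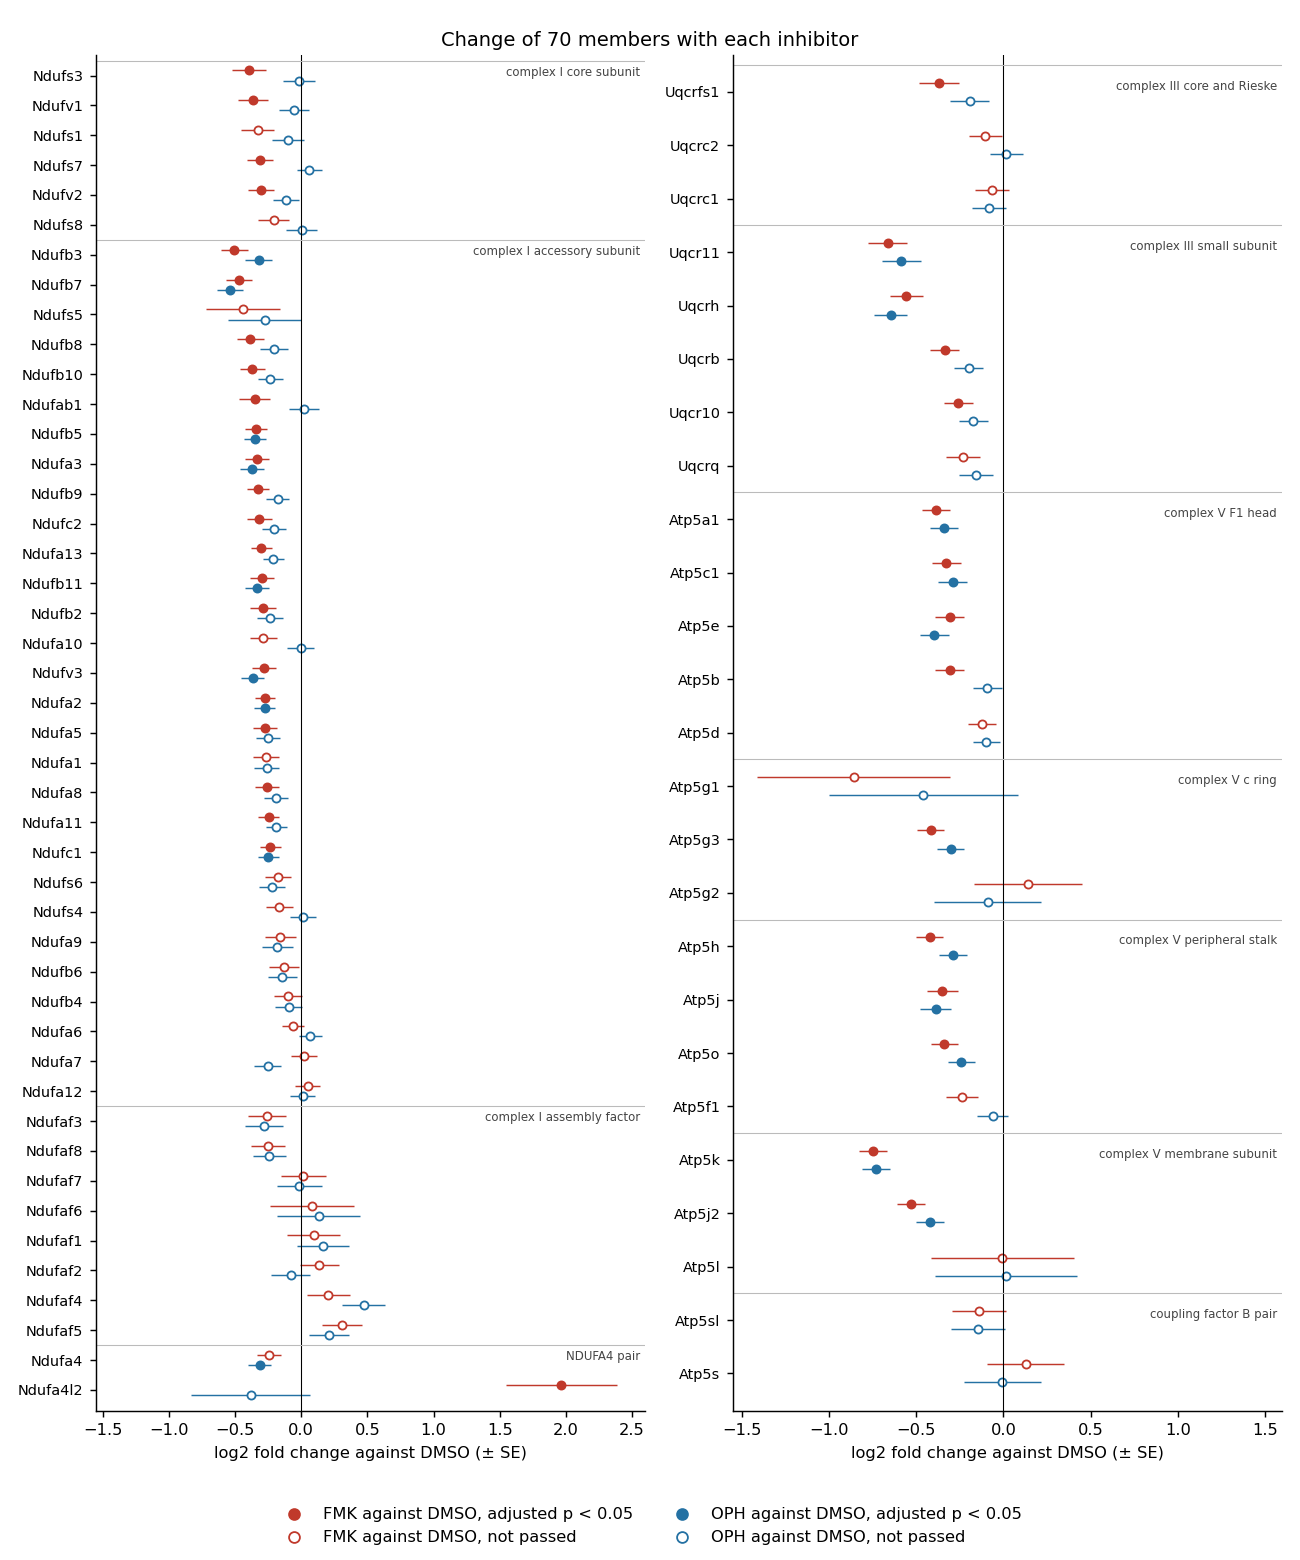
Log2 fold change against DMSO of 70 members (points, with the standard error of the fit as bars), red for FMK and blue for OPH, filled where the adjusted p was under 0.05; members are grouped by role, complex I on the left and complexes III and V on the right. Subunits lie mostly left of 0 with both inhibitors, the assembly factors spread around 0, and Ndufa4l2 stands alone at 1.96 with FMK.

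Complex I is built on core subunits shared with bacteria: Ndufv1 and Ndufv2 with Ndufs1 belong to the part that takes electrons from NADH, and Ndufs3, Ndufs7 and Ndufs8 to the arm that hands them to ubiquinone. These 6 core genes lay lower in every FMK library than in every DMSO library (18.1% of all genes did so). Of them, 4 passed the test with FMK, where 10.1% of all genes were called lower. These calls were sensitive to single libraries. In the 6 fits that each left out 1 library, Ndufs3 was called in 3, Ndufs7 and Ndufv1 in 1 each and Ndufv2 in 0. Ndufv1 measured 123, 138 and 115 CPM with DMSO, 93.4, 103 and 95.3 CPM with FMK and 129, 135 and 98.1 CPM with OPH, a log2 fold change of -0.37 ± 0.11 (SE, adjusted p = 0.0293) with FMK and -0.05 ± 0.11 (adjusted p = 0.822) with OPH. Ndufs7, whose protein carries the last iron-sulfur cluster before ubiquinone, measured 104, 111 and 97.1 CPM with DMSO, 77.8, 88.7 and 85.0 CPM with FMK and 113, 115 and 98.3 CPM with OPH. The FMK libraries of Ndufs7 were the lowest 3 of the 9, and the OPH libraries overlapped those with DMSO. Its log2 fold change was -0.31 ± 0.10 (adjusted p = 0.0318) with FMK and 0.06 ± 0.10 (adjusted p = 0.747) with OPH.

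Ndufs3 and Ndufv2 also fell with FMK, by 0.39 and 0.30 on the log2 scale (adjusted p = 0.0333 and 0.0361), while 64.7% of the 50-base stretches at the transcript end of Ndufs3 also occur in other genes or pseudogenes, which makes its count uncertain. Ndufs1 (-0.33, adjusted p = 0.0679) and Ndufs8 (-0.21, adjusted p = 0.241) did not pass with FMK. With the library number as a block, Ndufs1 passed (adjusted p = 0.0128).

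The accessory subunits surround the core and are needed for its assembly and stability. Of 29 accessory genes, 18 fell with FMK (62.1%, against 10.1% of all genes) and 8 with OPH (27.6%, against 8.11%). Their medians were -0.28 and -0.22. The Ndufb genes, whose proteins sit in the membrane arm, had 8 of 10 lower with FMK and 4 of 10 with OPH. Ndufb7 measured 111, 118 and 105 CPM with DMSO, 85.1, 73.8 and 81.8 CPM with FMK and 79.7, 79.6 and 70.3 CPM with OPH. Both inhibitor groups lay well under the lowest DMSO library, at -0.47 ± 0.10 (adjusted p = 0.00200) and -0.54 ± 0.10 (adjusted p = 0.000874). Ndufb3 had the lowest log2 fold change of complex I with FMK, at 194, 204 and 202 CPM with DMSO and 138, 150 and 134 CPM with FMK (-0.51 ± 0.10, adjusted p = 0.00181). With OPH it measured 171, 178 and 131 CPM (-0.32 ± 0.10, adjusted p = 0.0401), library 3 being the lowest.

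Further accessory genes called lower with both inhibitors were Ndufb5 (-0.34 and -0.35), Ndufb11 (-0.30 and -0.34), Ndufa3 (-0.33 and -0.37), Ndufa2 (-0.27 and -0.28), Ndufc1 (-0.24 and -0.25) and Ndufv3 (-0.28 and -0.37). In the 6 fits per inhibitor that each left out 1 library, Ndufb5 was called in 6 with FMK and 6 with OPH. The counts were 2 and 4 for Ndufb11, 4 and 5 for Ndufa3 and 3 and 2 for Ndufa2. They were 1 and 0 for Ndufc1 and 1 and 5 for Ndufv3. Ndufa2 was the most abundant complex I member, at 384 ± 15.4 CPM with DMSO, 317 ± 17.6 CPM with FMK and 317 ± 15.7 CPM with OPH. Ndufb8 (-0.38), Ndufb9 (-0.33), Ndufb10 (-0.37), Ndufc2 (-0.32) and Ndufa13 (-0.30) fell with FMK, and their values with OPH, from -0.23 to -0.18, did not pass. Ndufab1, the mitochondrial acyl carrier protein, which also serves lipoic acid and iron-sulfur cluster synthesis, measured 80.3, 78.4 and 62.8 CPM with DMSO, 58.3, 58.9 and 56.1 CPM with FMK and 78.4, 79.9 and 66.0 CPM with OPH. FMK lay under every other library of this gene (-0.35 ± 0.12, adjusted p = 0.0403), and OPH was at the DMSO level (0.02 ± 0.12, adjusted p = 0.943). The FMK call of Ndufab1 held in 1 of the 6 fits that each left out 1 library.

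Not every accessory subunit moved. Ndufa12 was at 0.05 with FMK and 0.01 with OPH, and Ndufa6 at -0.06 and 0.07, none of which passed. Ndufa12 has a near-identical pseudogene, Gm15920, which held 2969 counts beside its own 6393, so its reads may have been divided. Ndufs5, the least abundant complex I member at 8.86 ± 0.57 CPM with DMSO, had values of -0.44 and -0.28 that did not pass, and 47.0% of its end stretches are shared with other loci. With the library as a block, Ndufa1 passed with both inhibitors (adjusted p = 0.0169 and 0.0203), Ndufa10 with FMK (0.0182) and Ndufa5, Ndufa7 and Ndufa13 with OPH (0.0248, 0.0238 and 0.0436), all lower.

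The assembly factors are proteins that help to build complex I without staying in it. Of 8 genes named Ndufaf, 0 were called with either inhibitor by edgeR, DESeq2 or limma-voom. By edgeR, 20.6% of all genes were called in either direction with FMK and 16.7% with OPH. At these shares, 0 calls among 8 genes do not set the assembly factors apart from all genes. Of the 8, 1 had an unadjusted p under 0.05 in edgeR with OPH and 0 with FMK, and their medians were 0.09 with FMK and 0.06 with OPH. Ndufaf4 measured 33.0, 35.0 and 31.4 CPM with DMSO, 28.6, 39.7 and 46.3 CPM with FMK and 53.0, 43.7 and 41.0 CPM with OPH. All 3 OPH libraries of Ndufaf4 were above all DMSO libraries, but the difference of 0.47 ± 0.16 did not pass (adjusted p = 0.0536). With the library number as a block it passed (adjusted p = 0.0243). Ndufaf3 lay lower in all FMK and all OPH libraries than in all DMSO libraries, at -0.26 and -0.28 (adjusted p = 0.232 and 0.207). Ndufaf8 was at -0.25 and -0.24 (adjusted p = 0.185 and 0.224), and its FMK libraries also lay under all DMSO libraries. These genes are less abundant than most subunits, from 9.47 ± 1.96 CPM (Ndufaf6) to 76.6 ± 6.90 CPM (Ndufaf8) with DMSO. Some subunits lie as low, such as Ndufs5 (8.86 ± 0.57 CPM) and Ndufs3 (63.1 ± 6.25 CPM). The standard errors of the assembly factors, from 0.13 to 0.32 with FMK, were larger than the median of 0.10 over all members. Falls of the size of the subunits could therefore be missed.

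Ndufa4 was first assigned to complex I and is now regarded as a subunit of complex IV, and its relative Ndufa4l2 is known as a hypoxia-inducible gene. Ndufa4l2 was the only member that rose with FMK. It measured 26.8, 18.5 and 40.8 CPM with DMSO, 146, 115 and 75.8 CPM with FMK and 23.8, 29.7 and 12.5 CPM with OPH. Each FMK library was above each of the 6 others, and the DMSO and OPH libraries overlapped. The log2 fold change was 1.96 ± 0.42 with FMK (adjusted p = 0.0203), -0.38 ± 0.45 with OPH (adjusted p = 0.661) and -2.34 ± 0.43 between OPH and FMK (adjusted p = 0.0234). The FMK call was lost with the library number as a block (adjusted p = 0.0534) and without DMSO library 1 or 2 or FMK library 1 or 2 (adjusted p = 0.0534 to 0.0781). The difference between OPH and FMK was lost without FMK library 1 or 2 or OPH library 1 or 2 (adjusted p = 0.0558 to 0.0806). Ndufa4 measured 225, 234 and 219 CPM with DMSO, 209, 172 and 192 CPM with FMK and 195, 174 and 176 CPM with OPH. It fell with OPH (-0.31 ± 0.09, adjusted p = 0.0196), and with FMK it was at -0.24 ± 0.09 (adjusted p = 0.0616, or 0.0208 with the block).

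Complex III has 8 members. The small subunits Uqcr11 and Uqcrh fell most in it and fell with both inhibitors. Uqcrh, the hinge protein near cytochrome c1, measured 419, 401 and 420 CPM with DMSO, 315, 266 and 262 CPM with FMK and 263, 293 and 235 CPM with OPH. The inhibitor libraries lay far under the DMSO libraries and overlapped each other, at -0.56 ± 0.09 (adjusted p = 0.000290) and -0.65 ± 0.09 (adjusted p = 0.000100). Uqcr11, the least abundant member of the complex, measured 131, 129 and 124 CPM with DMSO, 79.4, 78.0 and 84.4 CPM with FMK and 85.8, 99.7 and 69.5 CPM with OPH. Its log2 fold changes were -0.66 ± 0.11 (adjusted p = 0.000321) and -0.59 ± 0.11 (adjusted p = 0.00134).

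Uqcrb and Uqcr10 fell with FMK (-0.34 and -0.26, adjusted p = 0.00768 and 0.0331) and did not pass with OPH (-0.20 and -0.17). Uqcrq, at 361 ± 21.3 CPM with DMSO, had the highest mean of complex III over all 9 libraries and was at -0.23 with FMK (adjusted p = 0.109) and -0.16 with OPH (adjusted p = 0.322). Of the larger proteins, Uqcrfs1, the Rieske iron-sulfur protein, fell with FMK (137, 146 and 118 CPM with DMSO, 102, 110 and 98.2 CPM with FMK; -0.37 ± 0.11, adjusted p = 0.0287). The core proteins Uqcrc1 (-0.06 and -0.08) and Uqcrc2 (-0.10 and 0.02) did not pass with either inhibitor. Counts within complex III were 5 of 8 lower with FMK (62.5%, against 10.1% of all genes) and 2 of 8 with OPH (25.0%, against 8.11%).

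In complex V, 10 of 17 members fell with FMK and 9 of 17 with OPH, and the medians were -0.33 and -0.29. The shares called lower were 58.8% and 52.9%, where 10.1% and 8.11% of all genes were. The rotor and head that make ATP took part: Atp5a1, the alpha subunit, measured 643, 646 and 637 CPM with DMSO, 496, 479 and 499 CPM with FMK and 500, 565 and 453 CPM with OPH. Its inhibitor libraries all lay under the DMSO libraries, at -0.39 ± 0.08 (adjusted p = 0.00188) and -0.34 ± 0.08 (adjusted p = 0.00612). Atp5b, the catalytic beta subunit, measured 681, 684 and 630 CPM with DMSO, 530, 523 and 559 CPM with FMK and 630, 691 and 550 CPM with OPH. It fell with FMK (-0.31 ± 0.08, adjusted p = 0.0131), and OPH overlapped DMSO (-0.09 ± 0.08, adjusted p = 0.517). The gamma subunit Atp5c1 (-0.33 and -0.29) and the epsilon subunit Atp5e (-0.31 and -0.40) fell with both, and the delta subunit Atp5d (-0.12 and -0.10) passed with neither.

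The peripheral stalk, which holds the head still, had 3 of 4 genes lower with each inhibitor, where 10.1% (FMK) and 8.11% (OPH) of all genes were. These were Atp5h (-0.42 and -0.29), Atp5j (-0.35 and -0.39) and Atp5o (-0.34 and -0.24). The OPH call of Atp5o held in 1 of the 6 fits that each left out 1 library. The end of Atp5h is shared with other loci over 62.2% of its stretches and that of Atp5o over 45.3%. The fourth, Atp5f1, was at -0.24 with FMK (adjusted p = 0.0734, or 0.0285 with the block) and -0.06 with OPH. The subunits e and f of the membrane part, Atp5k and Atp5j2, had the smallest adjusted p-values of all members with FMK. Atp5k measured 397, 383 and 406 CPM with DMSO, 244, 220 and 244 CPM with FMK and 244, 253 and 218 CPM with OPH. DMSO and inhibitor libraries were separated by more than 100 CPM, and FMK and OPH overlapped. The log2 fold changes were -0.75 ± 0.08 (adjusted p = 2.52e-06) with FMK and -0.73 ± 0.08 (adjusted p = 5.52e-06) with OPH.

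Atp5j2 measured 426, 411 and 415 CPM with DMSO, 305, 267 and 295 CPM with FMK and 315, 333 and 287 CPM with OPH (-0.53 ± 0.08 and -0.42 ± 0.08, adjusted p = 0.000108 and 0.00137). Atp5l, subunit g, was counted at only 3.36 ± 0.71 CPM with DMSO, the least of all members, and 78.6% of its end stretches occur elsewhere. It was at -0.01 with FMK and 0.02 with OPH, and its standard errors of 0.41 leave falls like those of Atp5k within reach. The coupling factor B gene Atp5s and its relative Atp5sl, counted in complex V by the prefix alone, passed with neither inhibitor, with values from -0.15 to 0.13.

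**Figure D3:**
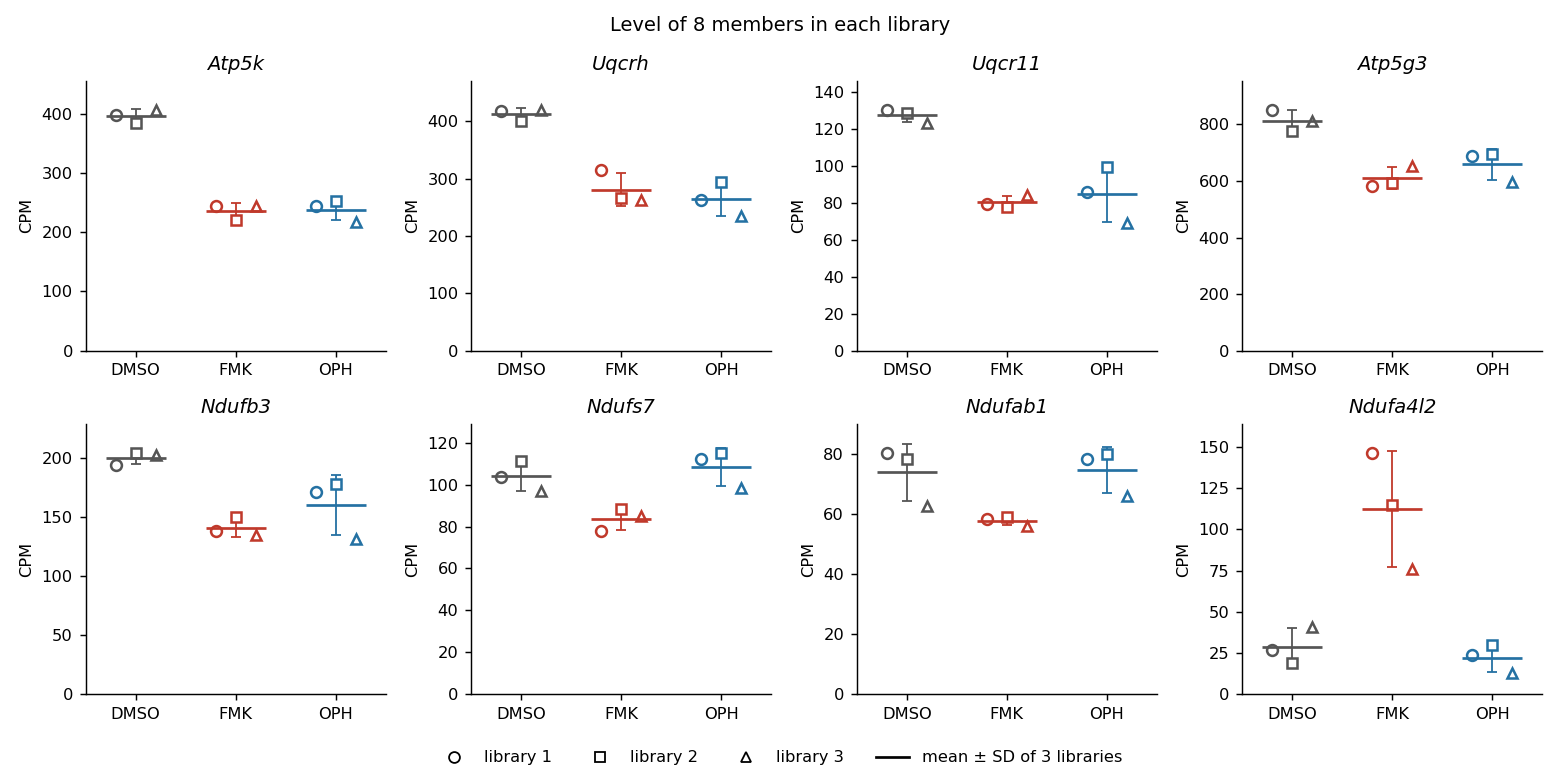
Level in CPM of 8 members in each library (symbols show the library number, lines the mean, bars the SD of 3 libraries; each axis starts at 0). Atp5k, Uqcrh, Uqcr11 and Atp5g3 are lower with both inhibitors, Ndufs7 and Ndufab1 are lower with FMK and near the DMSO level with OPH, and Ndufa4l2 is higher with FMK.

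The c subunit forms the rotor ring, and 3 nuclear genes encode the same mature protein. Atp5g3 was the most abundant of all 71 members, at 851, 776 and 813 CPM with DMSO, 582, 591 and 654 CPM with FMK and 687, 694 and 596 CPM with OPH. It fell with both (-0.42 ± 0.08, adjusted p = 0.000918, and -0.30 ± 0.08, adjusted p = 0.0128). Atp5g2 was counted at 6.63 ± 1.01 CPM with DMSO, and 99.2% of its end stretches occur elsewhere, so its level is uncertain. It did not pass (0.14 with FMK, -0.09 with OPH).

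Atp5g1 carried a library pattern of its own. It measured 32.2, 80.3 and 84.0 CPM with DMSO, 18.9, 44.5 and 45.1 CPM with FMK and 25.0, 59.7 and 58.5 CPM with OPH, library 1 being the lowest in each group. Its pseudogene Gm10039 on chromosome 11 shows the reverse, with 315, 123 and 91 counts in the DMSO libraries, 220, 86 and 38 with FMK and 295, 119 and 46 with OPH. In libraries 1 of the 3 groups Gm10039 held 60.3%, 65.5% and 62.8% of the counts of the pair, and in the other libraries 11.1% to 23.1%. The counts of Atp5g1 and its pseudogenes together gave 81.4, 101 and 97.2 CPM with DMSO, 54.9, 58.1 and 52.1 CPM with FMK and 67.0, 77.2 and 66.3 CPM with OPH, 3 groups that do not overlap.

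On its own count Atp5g1 did not pass, at -0.86 ± 0.55 with FMK (adjusted p = 0.360) and -0.46 ± 0.54 with OPH (adjusted p = 0.664). With the library number as a block the adjusted p was 9.42e-07 and 0.00362, and 0.0172 between OPH and FMK. With pseudogene counts added, an alternative chosen after the data were seen, the log2 fold changes were -0.76 (adjusted p = 7.11e-05) and -0.41 (adjusted p = 0.0151), and 38 and 22 members were lower with FMK and OPH. Between OPH and FMK the summed counts differed by 0.35 and did not pass (adjusted p = 0.0584). What sets library 1 apart was not tested.

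**Figure D4:**
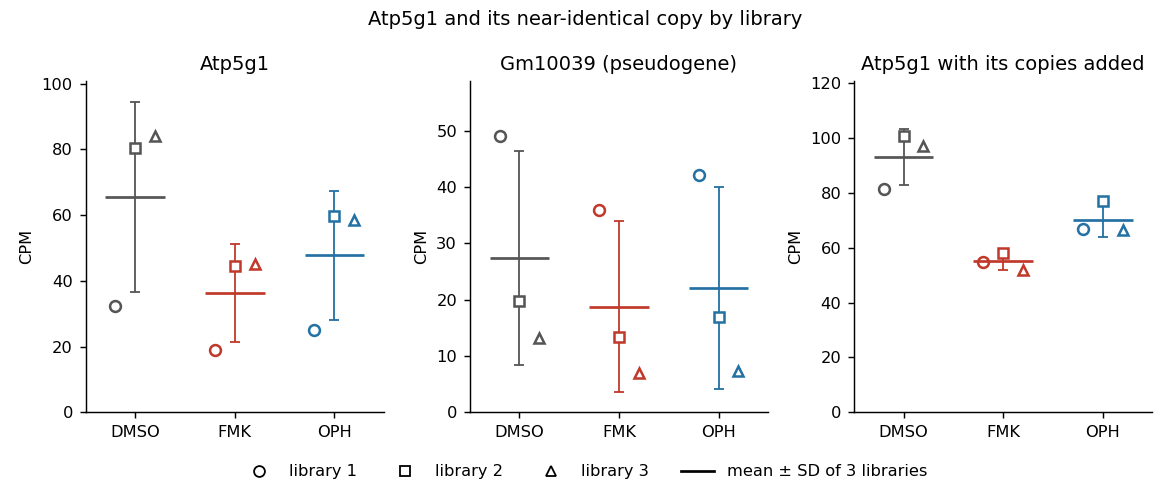
Level in CPM of Atp5g1, of its pseudogene Gm10039 and of Atp5g1 with its pseudogene counts added, in each library (symbols show the library number, lines the mean, bars the SD of 3 libraries; axes start at 0). Library 1 (circles) is lowest for Atp5g1 and highest for Gm10039 in every group, and the summed values separate the 3 groups.

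Set against each other at the same dose and time, the 2 inhibitors differed in few members. Only 1 compound pair was compared, over all genes. OPH was higher than FMK for 1 member, Ndufs7 (0.37 ± 0.10, adjusted p = 0.0237; 1.41% of the members, where 4.20% of all genes were called higher), and lower for 1, Ndufa4l2 (where 4.66% of all genes were called lower). The member median was 0.05, and that of all genes 0.01. In 7 members every OPH library lay above every FMK library (13.9% of all genes did so) and in 1 under it (13.2%, so 27.1% in either direction). The Ndufs7 call was lost without FMK library 1 or OPH library 1 or 2 (adjusted p = 0.107, 0.0853 and 0.110).

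For Atp5k, Uqcrh and Uqcr11, picked as low with both inhibitors, the difference between inhibitors was bounded closely, and the choice favours small differences. It was 0.01 for Atp5k (95% interval -0.16 to 0.19), -0.09 for Uqcrh (-0.29 to 0.11) and 0.08 for Uqcr11 (-0.16 to 0.32). For Atp5g1, with the lowest log2 fold change of all members with FMK (-0.86), the difference was 0.40 and hardly bounded (-0.95 to 1.75). Over the members, 58 of 71 had an interval within 0.5 of 0 on the log2 scale. That bound is wider than the median member changes of -0.27 with FMK and -0.20 with OPH. A difference as large as a typical fall could thus lie within it, and the count does not show equal effects. For several genes the interval lay on 1 side of 0 while the adjusted p did not pass, among them Ndufs3 (0.38, 0.11 to 0.64), Ndufab1 (0.37, 0.13 to 0.62), Ndufv1 (0.31, 0.07 to 0.55) and Ndufa10 (0.28, 0.07 to 0.49). With the library number as a block 6 members were higher with OPH than with FMK, Ndufs7, these 4 and Atp5g1 (adjusted p = 0.0303, 0.0121, 0.0200 and 0.0312 for the 4 in the order given). In that fit 2 were lower, Ndufa4l2 and Ndufa7 (-0.28, adjusted p = 0.0220). Of all 13255 genes, the same fit called 1031 higher and 1108 lower with OPH than with FMK.

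Other parts of oxidative metabolism were read from lists of genes outside the prefixes. Over all genes tested, 10.1% were called lower and 10.4% higher with FMK, and 8.11% lower and 8.61% higher with OPH. Of 30 complex IV genes, 8 were lower and 2 higher with FMK, and 8 were lower and 2 higher with OPH. Cox6b1, a subunit of complex IV, measured 343 ± 23.8 CPM with DMSO, 239 ± 12.3 CPM with FMK and 246 ± 27.7 CPM with OPH (-0.52 and -0.48, adjusted p = 0.000439 and 0.00135). Cox7a2 fell with FMK (-0.39) and Cox6c with OPH (-0.39), while Cox18, which inserts a complex IV subunit into the membrane, rose with both (0.82 and 0.53). In complex II, 2 of 8 genes were lower with FMK, Sdhd (-0.43) and Sdhc (-0.38), and 1 with OPH, the assembly factor Sdhaf4 (-0.54). Of 8 genes for cytochrome c and complex III partners, Cycs (-0.51) and Uqcc3 (-0.42) fell with FMK. Among 7 partners of complex V outside the prefix, 1 fell with FMK, 2010107E04Rik (-0.28), and 3 with OPH, the same gene (-0.38), Atpif1 (-0.36), which encodes the inhibitor of ATP hydrolysis by the complex, and Usmg5 (-0.28).

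Of the 13 protein genes of the mitochondrial genome, 7 were tested. With FMK mt-Nd2 (-0.30) and mt-Nd1 (-0.62) fell and mt-Co1 rose (0.26), and with OPH 4 fell, among them mt-Nd2 (-0.55), mt-Nd5 (-0.36) and mt-Nd1 (-0.85). Of 13 citric acid cycle genes, 2 fell with FMK, among them Fh1 (-0.57), and 3 were higher with OPH than with FMK, among them Idh3a (0.87) and Dld (0.40). Among 76 genes of the mitochondrial ribosome, 11 fell and 2 rose with FMK, and 7 fell and 4 rose with OPH. The shares lower, 14.5% and 9.21%, lay near the 10.1% and 8.11% of all genes tested. The 81 cytosolic ribosome genes, added after values were seen, had 8 higher with FMK, a share near the 10.4% of all genes, and 11 lower and 1 higher with OPH.

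Glycolysis moved the other way with FMK. Of 17 genes for glycolysis and lactate export, 14 rose with FMK and 1 fell, with a median of 0.60. With OPH 2 rose and 1 fell, with a median of 0.04. The shares higher were 82.4% and 11.8%, where 10.4% and 8.61% of all genes were. Slc2a1, the glucose transporter GLUT1, measured 64.0 ± 7.33 CPM with DMSO, 164 ± 13.0 CPM with FMK and 107 ± 11.0 CPM with OPH. It rose with both inhibitors (1.36 and 0.74, adjusted p = 5.36e-08 and 0.000112), and so did Pfkp (1.04 and 0.52), while Pkm rose with FMK (0.77). Between the inhibitors 11 of the 17 were lower with OPH (64.7%, against 4.66% of all genes), led by Pkm (-0.80), the lactate exporter Slc16a3 (-1.71) and Eno1 (-0.90). The complex IV gene Cox4i2, known as hypoxia-inducible like Ndufa4l2, was low with DMSO (5.30 ± 1.78 CPM) and rose with FMK (1.39, adjusted p = 0.00483). With OPH it did not pass against DMSO (0.25, adjusted p = 0.689), and it was lower with OPH than with FMK (-1.13, adjusted p = 0.0315).

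**Figure D5:**
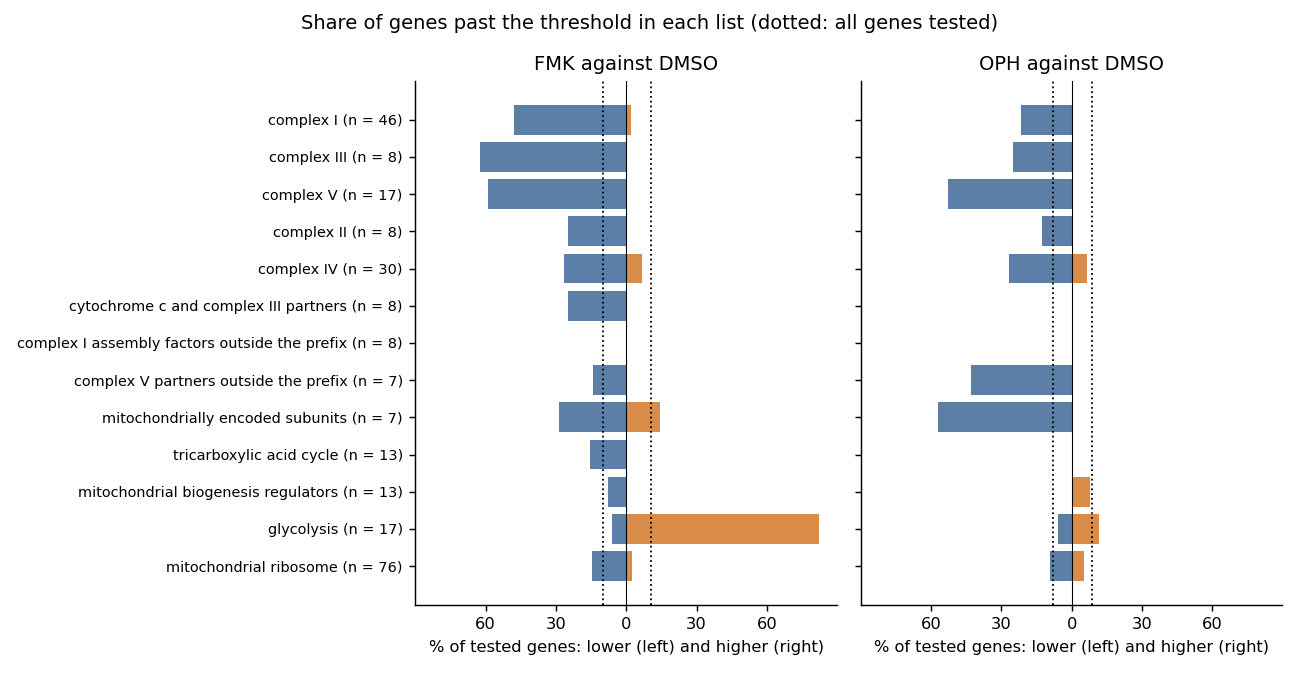
Share of tested genes called lower (blue, left) and higher (orange, right) in complexes I, III and V and in lists of related genes, for FMK and OPH against DMSO; dotted lines mark the shares over all genes tested. Complexes I, III and V lie past the dotted line on the lower side in both panels, and 82.4% of the glycolysis list is higher with FMK.

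Of 13 regulators of mitochondrial genes, 1 fell with FMK and 1 rose with OPH. Each is 7.69% of the list, near the 10.1% of all genes lower with FMK and the 8.61% higher with OPH. Ppargc1a, which encodes the coactivator PGC-1α, measured 6.22, 5.32 and 3.78 CPM with DMSO, 5.39, 7.75 and 3.13 CPM with FMK and 34.4, 32.7 and 24.2 CPM with OPH. The OPH libraries lay far above the 6 others, which overlapped. The log2 fold change was 2.58 ± 0.28 with OPH (adjusted p = 4.13e-06), 0.11 ± 0.31 with FMK (adjusted p = 0.861) and 2.47 ± 0.28 between OPH and FMK (adjusted p = 3.90e-05). Its relative Ppargc1b fell with FMK (-1.40 ± 0.38, adjusted p = 0.0138). Nrf1 (0.09 and 0.04), Tfam (0.03 and 0.14) and Esrra (-0.02 and 0.30), the last encoding ERRα, passed with neither inhibitor. Yy1 lay above all DMSO libraries in all libraries with FMK (0.20, adjusted p = 0.181) and OPH (0.26, adjusted p = 0.0787) and did not pass. The GABP genes Gabpa (0.31 and 0.37) and Gabpb1 (0.35 and -0.00) did not pass either, with the FMK libraries of Gabpb1 above all DMSO libraries.

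The cultures are mixtures, and in bulk RNA fewer cells of a type and less RNA per cell cannot be told apart. All 12 of 12 macrophage markers were lower with each inhibitor, with a summed level of 871 to 1689 CPM with DMSO, 19.8 to 29.0 CPM with FMK, where Adgre1 and Mrc1 were at 0 in some libraries, and 141 to 176 CPM with OPH. Of 12 chondrocyte markers, 10 were lower with FMK and 6 with OPH (3195 to 4521 CPM with DMSO, 1589 to 1701 CPM with FMK, 1497 to 2630 CPM with OPH). Of 11 adipocyte markers tested, 6 were lower with FMK (499 to 2546 CPM with DMSO, 119 to 212 CPM with FMK, 740 to 2834 CPM with OPH), and Cidec was at 0 in all 3 FMK libraries. The 12 skeletal muscle markers summed to 209 to 767, 122 to 490 and 237 to 669 CPM, with 1 of them at an unadjusted p under 0.05, lower with FMK, and 0 past edgeR's adjusted threshold. Of 5 brown adipocyte markers, a list that includes Ppargc1a, 1 was higher with FMK and 2 with OPH (16.4 to 49.8, 16.6 to 21.1 and 46.7 to 129 CPM). With FMK 3 of the 5 had negative log2 fold changes and 2 positive ones, with a median of -2.73. Lower with FMK were 2 at an unadjusted p under 0.05 and 0 past the adjusted threshold. With OPH all 5 were positive, with a median of 1.01. Library 3 of each group had the lowest adipocyte and the highest muscle sum. The part of these cell types in the values of the complexes was not tested.

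The members have short transcripts, with a median of 838 bases against 2772 bases for the tested coding genes. Among members under 1000 bases, 60.5% of 43 were lower with FMK and 41.9% with OPH, and among the 880 other tested coding genes of that length 13.1% and 17.2% were. The shares of longer members called lower with FMK were 40.0% of the 20 from 1000 to 2000 bases and 37.5% of the 8 above, where 11.0% and 9.95% of other genes of those lengths were lower. With OPH they were 10.0% and 12.5%, where 11.0% and 6.62% of other genes of those lengths were lower. These length classes were set after values were seen.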

How the data were processed

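RNA of 9 libraries was read with a QuantSeq 3' kit, per the labels' protocols. The authors deposited whole-number read counts per gene and library, which were used as they stand. The submitters' processing notes name FastQC, MultiQC, cutadapt, STAR, DESeq2 and mm10. How reads were assigned to genes (program, annotation, strand, reads with several positions) is not given in the sources used here, so genes with near-identical copies or overlapping neighbours are uncertain: 29 members share 50-base stretches of their transcript ends with other loci, and 3 and 11 overlap a gene at their end on the same and the opposite strand. Library totals were 5659789 to 6867350 counts, and 99 spike-in rows with 1 count were left out.

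The test was edgeR 4.0.16 under R 4.3.3 (filterByExpr, TMM factors, robust quasi-likelihood F test, two-sided, 1 coefficient per group, all 9 libraries, Benjamini-Hochberg over 13255 genes, threshold 0.05), after the scripts were checked on simulated counts. CPM are relative to TMM-scaled library sizes. With 3 libraries against 3 an exact permutation test cannot go below p = 0.1. Same-numbered libraries deviated together over all genes (r = 0.102 to 0.344, other pairs -0.275 to 0.0147), while over the 71 members the values were -0.0451 to 0.62 and -0.512 to 0.492. The number was taken to pair the libraries from the values over all genes and not from the labels, and a fit with it as a block was run. Alternatives were other scalings, filters, tools (DESeq2 1.42.0, limma 3.58.1), fewer libraries, and added pseudogene counts. Lengths and gene ends come from GENCODE M21 (GRCm38).

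Named are members past the threshold in each comparison (the 30 with the smallest p where there were more), the core subunits, the c-subunit genes, the highest and lowest member of each complex, and, of other lists, the 3 called genes with the smallest p; 1 member and 1 gene of another list are not reported here by name. The members and lists were chosen with earlier results of these data known.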

Additional observations from a re-analysis of the deposited data

How the results depend on the processing

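No member's call reversed in direction under any alternative. With the replicate number as a block, the count of members higher with FMK than DMSO was 0, that of members higher with OPH than DMSO was 1 (Ndufaf4), and between OPH and FMK 6 were higher and 2 lower; 43 and 26 members were lower with FMK and OPH, including all 37 and all 21 of the fit without a block, and beyond the members named in the text the block changed no other member's call. Of all 13255 genes, the block fit called 1779 higher and 1773 lower with FMK than DMSO. It called 1536 higher and 1503 lower with OPH than DMSO, and 1031 higher and 1108 lower with OPH than FMK. Without a low-count filter, 1 member was higher with OPH than DMSO (1360 of 23147 genes were) and 5 with OPH than FMK (820 genes were). With only the 2 groups in the fit, 1 member was higher with OPH than DMSO (1138 of 12916 genes were). With library size alone, 6 members were higher with OPH than FMK (1103 of 13255 genes were). In that setting the median of all genes moved to -0.11 for FMK against DMSO and 0.12 for OPH against FMK. With the libraries numbered 1 and 2 alone, 11 members were lower with OPH than DMSO (923 of 13415 genes were). In that setting 7 members were higher with OPH than FMK (644 genes were). Leaving out 1 library at a time gave 14 to 30 members lower and 0 to 1 higher with FMK than DMSO, 10 to 20 lower and 0 higher with OPH than DMSO, and 0 to 5 higher and 0 to 1 lower with OPH than FMK. Over all genes, these fits called 938 to 1221 lower and 1041 to 1291 higher with FMK than DMSO. They called 696 to 848 lower and 791 to 931 higher with OPH than DMSO, and 265 to 470 higher and 306 to 580 lower with OPH than FMK. The causes of these moves were not tested. Of the limits, 3 libraries per group gave a median standard error of 0.10 on the log2 scale per member, so differences of the size of the median fall (-0.27 with FMK) lie close to what can pass.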
